A study of Homo sapiens with 24 samples.

Results

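The clustered protocadherins were examined in U87-T glioblastoma cells, a line transduced with TERT, after loss of DAXX or ATRX and with or without etoposide. Members were taken as the protein-coding genes on chromosome 5 whose GENCODE symbol starts with PCDHA, PCDHB or PCDHG. The annotation of build GRCh37 (hg19) held 53 such genes, and 51 of them were matched among the 57736 genes of the count table, namely 15 alpha, 15 beta and 21 gamma genes. PCDHB16 and PCDHGB5 had no matching identifier and were not analysed here. The 24 libraries form 8 groups of 3 libraries. The DAXX series holds WT and DAXX_KO cells and the ATRX series holds WT and ATRX_KO cells, each as untreated control and with etoposide, an inhibitor of topoisomerase II. The dose and time of etoposide for these libraries were not given in the sources used here. All groups share the U87-T background, and per the methods of the study the KO cells are single-cell clones made with CRISPR/Cas9 that have acquired features of alternative lengthening of telomeres, so that knockout and clone cannot be told apart. One tag of the DAXX_KO libraries gives ATRX as the gene knocked out, and their titles were followed. DAXX mRNA was 5.92 ± 1.08 CPM (counts scaled to the library total and TMM factor, SD, n = 3) in DAXX_KO control libraries and 34.5 ± 1.27 in WT of that series, and ATRX mRNA was 79.3 ± 5.73 in ATRX_KO control libraries and 189 ± 5.07 in WT. The study describes its experiments in general as biological replicates, and the labels do not say which libraries came from separate cultures, so p-values measure the spread between these libraries.

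Clustered protocadherins are cell adhesion proteins of the cadherin superfamily that are best known from neurons, where each cell uses a small set of them as a surface identity and like sets recognise each other between cell membranes. In the alpha and gamma clusters each gene has a variable first exon of its own, with its own promoter, which is spliced to constant exons at the 3′ end of the cluster, while a beta gene is a single coding exon without a shared constant part. The promoters are known to carry a conserved sequence element and to bind CTCF, which with cohesin brings a promoter to distant enhancers, and DNA methylation of a promoter goes with silence of that gene. In the reference the alpha cluster spans chr5:140165721-140391932, the beta cluster chr5:140430959-140628933 and the gamma cluster chr5:140710081-140892544 (hg19, plus strand). All 15 alpha genes have a last exon that starts at 140389212, and all 22 annotated gamma genes one that starts at 140890514.

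The promoter sequences of the 7 members on which the results turn are shown because the promoters carry a conserved element and members within a cluster are close copies of each other. Sequences are from RefSeq (GRCh38.p14, plus strand), of which the table holds 300 bases per start site, 250 before and 50 after, for 47 of the 53 genes. For each cluster, the word of 10 bases found in more of its promoters than any other was taken, and of equally frequent words the one rarest among all promoters. The words were chosen after the sequences were seen, and both strands were counted. Capitals mark that word or, where it is absent, the place nearest to it. The beta word GGTGGCGCTG lay in the promoters of 12 of 14 genes (all but PCDHB1 and PCDHB14) and in 0.276% of all 35116 promoters of the table. The alpha word ATGATGTCGC lay in 8 of 13 and 0.0313%, and the gamma word GCGCCGCTGT in 9 of 20 and 0.131%. Counted from 1 at the 5′ end of the word, PCDHB14 has G10A and PCDHA10 has A1C and T2G.
PCDHB2, chr5:141094535-141094594: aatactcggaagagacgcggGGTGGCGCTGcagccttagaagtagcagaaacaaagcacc
PCDHB9, chr5:141187065-141187124: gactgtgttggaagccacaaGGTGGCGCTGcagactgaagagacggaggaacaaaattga
PCDHB13, chr5:141213856-141213915: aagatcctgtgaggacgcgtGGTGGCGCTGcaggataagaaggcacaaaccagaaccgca
PCDHB14, chr5:141223254-141223313: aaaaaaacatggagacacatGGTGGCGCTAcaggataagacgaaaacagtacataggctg
PCDHB15, chr5:141245305-141245364: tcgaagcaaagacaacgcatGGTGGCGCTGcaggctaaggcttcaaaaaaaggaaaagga
PCDHA10, chr5:140855830-140855889: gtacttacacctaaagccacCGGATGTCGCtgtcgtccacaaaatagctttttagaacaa
PCDHGA10, chr5:141412923-141412982: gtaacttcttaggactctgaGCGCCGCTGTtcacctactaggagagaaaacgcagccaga
The word started 60 bases before the start site in PCDHB2, 76 in PCDHB9, 43 in PCDHB13, 70 in PCDHB15 and 44 in PCDHGA10. The place nearest to it started 69 bases before the start site in PCDHB14 and 47 in PCDHA10. A match of letters is a description and not a measured site.

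The libraries were made with a 3′ tag kit, in which a read marks the end of a transcript, so most reads of an alpha or gamma transcript that reaches the constant exons can be divided among the genes of the cluster only by estimation. Of the 21 gamma genes, 2 (PCDHGA10 and PCDHGC3) had a count above 0 in all 24 libraries. The gamma genes had a count in 96 combinations of gene and group, and in 70 of them at least 1 of the 3 replicates was at 0. PCDHGA5 is an example, with 544, 531 and 123 counts in WT control of the ATRX series and 73, 0 and 0 in ATRX_KO control. The sum over the gamma cluster was far steadier. Its coefficient of variation between replicates lay between 0.869% and 16.4% over the 8 groups, whereas the median for single gamma genes with a mean of at least 20 counts, PCDHGA10 left out, lay between 54.8% and 173%. A coefficient of 173% is that of a gene counted in 1 replicate of 3. PCDHGA10 itself varied by 4.14% to 28.1%, and it took from 31.9% to 78.8% of the gamma counts of a library. Summed levels are therefore given beside single genes below, as descriptions without a test.

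**Figure D1:**
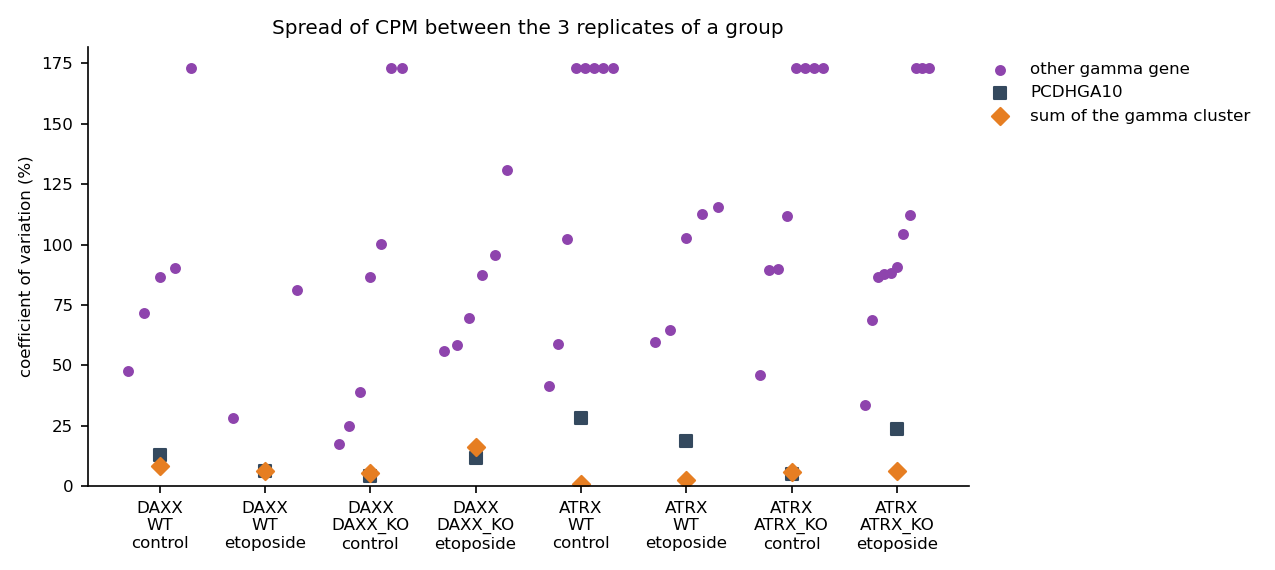
Coefficient of variation (%) of TMM-scaled CPM between the 3 replicates of each group, for the gamma sum (diamonds), PCDHGA10 (squares) and every other gamma gene with a mean of at least 20 counts in the group (dots). The sum does not exceed 16.4% in any group, while single genes reach 173%.

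In DAXX_KO control cells, 7 of the 14 members tested were higher than in WT and 0 were lower at an FDR of 0.05 (edgeR quasi-likelihood test), namely PCDHGA10, PCDHGA9, PCDHGA12, PCDHB2, PCDHB9, PCDHB13 and PCDHB14. Of all genes tested in this comparison 53.4% were called, 26.9% as higher. The median log2 fold change over the 14 members was 1.28, beside 0.02 over all genes. Of the 14, PCDHB2, PCDHGA9 and PCDHGA4 had 0 counts in WT control and passed the filter on low counts through other groups. PCDHGA12 passed it only with its counts in DAXX_KO control, where it is high. The median and the count of calls are therefore descriptions only. The other members in the table did not reach the minimum count in enough libraries to be tested. In 6 members the 3 DAXX_KO libraries did not overlap the 3 WT libraries, as in 60.0% of all genes tested. DESeq2 called 4 members, all higher, and without a filter on low counts 18 of 40 were called, 14 of them higher. The shares of all genes called under these settings are not given here, so these counts are descriptions only.

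PCDHGA10 (ENSG00000253846, chr5:140792554-140892542), a gamma gene of the A type, carried the best counted difference. Its counts were 546, 375 and 366 in WT control libraries of the DAXX series and 1094, 1107 and 1125 in DAXX_KO control, although the DAXX_KO libraries were the shallower ones. With etoposide the counts were 371, 350 and 346 in WT and 671, 830 and 616 in DAXX_KO. All 6 DAXX_KO libraries thus lay above all 6 WT libraries of the series. Scaled to depth, the level was 47.9 ± 6.22 CPM in WT control, 142 ± 5.86 in DAXX_KO control, 45.2 ± 2.91 in WT with etoposide and 79.8 ± 9.27 in DAXX_KO with etoposide (SD, n = 3). The log2 fold change of DAXX_KO over WT was 1.56 (SE 0.10, adjusted p = 9e-11) in control and 0.81 (SE 0.10, adjusted p = 1.2e-06) with etoposide in edgeR. A bulk library cannot tell more cells that express a gene from more RNA per cell. In the ATRX series PCDHGA10 counts were 682, 560 and 927 in WT control and 768, 845 and 810 in ATRX_KO control, and these overlapped. The ATRX_KO change was 0.17 (SE 0.18, adjusted p = 0.47) in control and -0.31 (SE 0.18, adjusted p = 0.18) with etoposide. The latter passed as lower without ATRX_KO etoposide replicate 3 (-0.52, adjusted p = 0.026) and without a filter on low counts (adjusted p = 0.013, with a change of -0.30 that was no larger).

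**Figure D2:**
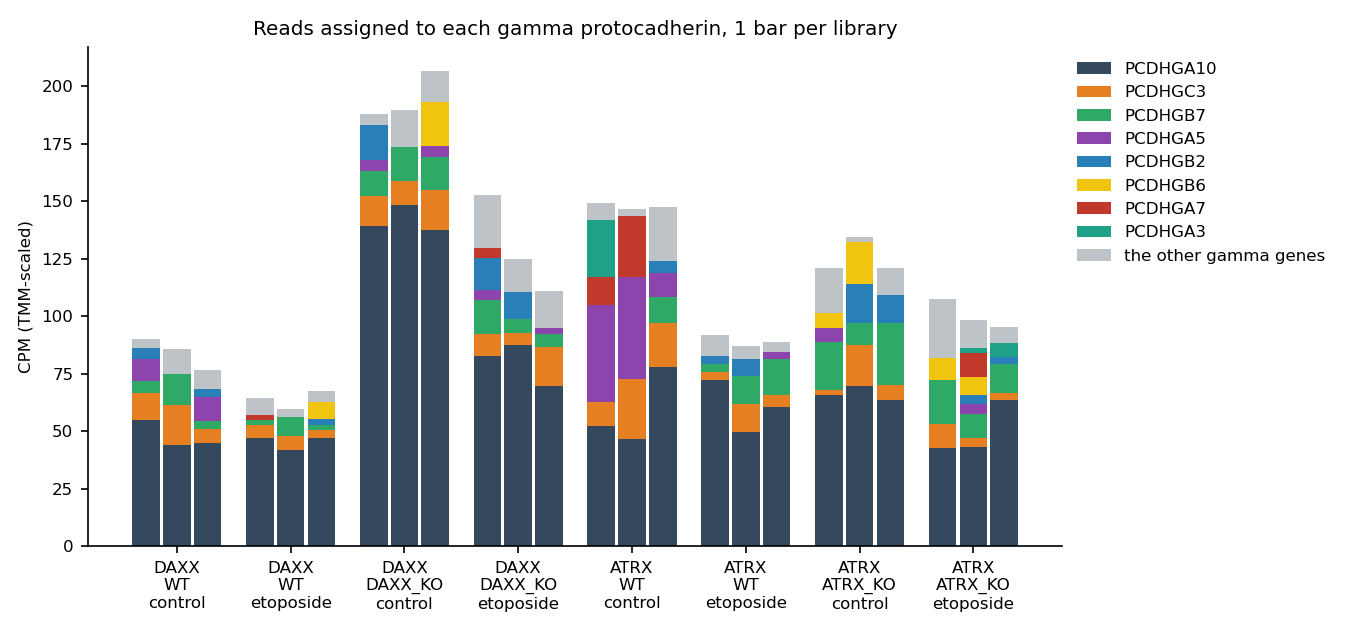
CPM (TMM-scaled) assigned to each gamma gene, stacked, with 1 bar per library and groups along the x axis. PCDHGA10 is the base of every bar, and the 3 DAXX_KO control bars end between 188 and 207 CPM, while the genes above PCDHGA10 change from replicate to replicate.

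The gamma sum of the DAXX series was 84.1 ± 7.03 CPM in WT control and 195 ± 10.4 in DAXX_KO control, a ratio of 2.31, with libraries that did not overlap. With etoposide it was 63.7 ± 3.94 in WT and 129 ± 21.2 in DAXX_KO, a ratio of 2.03. Without PCDHGA10 the remaining gamma genes summed to 36.2 ± 5.10 CPM in WT control, with a highest library of 41.8, and to 53.0 ± 14.4 in DAXX_KO control, with a lowest library of 41.3, so these overlapped. With etoposide the remaining genes were apart, at 18.5 ± 1.63 CPM in WT, with a highest library of 20.3, and 49.6 ± 17.7 in DAXX_KO, with a lowest library of 37.5. In the ATRX series the gamma sum went the other way in control, from 148 ± 1.28 CPM in WT to 125 ± 7.60 in ATRX_KO, a ratio of 0.849. With etoposide it was 89.1 ± 2.35 in WT and 100.3 ± 6.46 in ATRX_KO, a ratio of 1.13. Without PCDHGA10 the remaining genes of the ATRX series summed to 88.7 ± 16.6 CPM in WT control, with a lowest library of 69.6. In ATRX_KO control they summed to 59.2 ± 4.64, with a highest library of 64.4, so these were apart. With etoposide they overlapped, at 28.5 ± 9.01 in WT and 50.4 ± 17.0 in ATRX_KO. The full gamma sum differed between the WT control libraries of the 2 series as well, by a ratio of 0.569, so the WT libraries of the 2 series were further apart than WT and ATRX_KO within 1 series.

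The C-type genes are the members of the alpha and gamma clusters that do not follow the random choice known for the others. PCDHGC3 was counted in every library and gave 114, 150 and 52 counts in WT control of the DAXX series and 104, 78 and 141 in DAXX_KO control. Those ranges overlapped. With etoposide PCDHGC3 was called higher in DAXX_KO (log2 fold change 1.02, SE 0.38, adjusted p = 0.031 in edgeR), on 79, 51 and 154 counts against 47, 52 and 26, and the call was lost without WT etoposide replicate 1 (adjusted p = 0.053), WT etoposide replicate 3 (0.13) or DAXX_KO etoposide replicate 3 (0.29, with a change of 0.49), and with all 24 libraries in one model (0.16). In the ATRX series PCDHGC3 had 138, 310 and 229 counts in WT control and 27, 212 and 83 in ATRX_KO control, a change of -1.07 (SE 0.54, adjusted p = 0.12 in edgeR) with overlapping libraries. It passed as lower without ATRX_KO control replicate 2 (-2.05, adjusted p = 0.0081) and without a filter on low counts (adjusted p = 6.8e-09). Without the filter the fitted change was still -1.07 on the same overlapping libraries, so the smaller p-value came without a larger change. PCDHGC4 had counts in 2 libraries and PCDHGC5 in 6. PCDHAC1 had 0 counts in all 24 libraries, and PCDHAC2 had 5 counts in all.

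The other gamma calls had reads in some replicates and few or none in others. PCDHGA9 was called higher in DAXX_KO control on 0, 68 and 37 counts against 0, 0 and 0, and PCDHGA12 on 18, 17 and 35 against 0, 0 and 15. Neither call was made by DESeq2. The PCDHGA9 call was lost without DAXX_KO control replicate 2 (adjusted p = 0.069), and the PCDHGA12 call without WT control replicate 1 or 2 or any 1 DAXX_KO control library (0.061 to 0.15). With all 24 libraries in one model both were lost as well (0.057 and 0.23). In the DAXX series PCDHGA12 passed the filter on low counts only with its DAXX_KO control libraries. It had 11, 0 and 0 counts in WT with etoposide and 0, 0 and 0 in DAXX_KO with etoposide. Its adjusted p-values in that series are therefore no independent support. PCDHGB7 was not called in DAXX_KO control (0.87, SE 0.43, adjusted p = 0.098 in edgeR). It passed as higher without WT control replicate 2 (1.60, adjusted p = 0.0067) and without a filter (6.5e-05, with a change of 0.84 that was no larger). The same held with scaling by library totals (0.047) and with only the groups compared (0.033). With etoposide, 6 of 14 members were called higher in DAXX_KO and 0 lower, where 53.0% of all genes were called and 27.8% as higher, namely PCDHGA10, PCDHGA1, PCDHGA5, PCDHGC3, PCDHB2 and PCDHB13. PCDHGA1 had 75, 28 and 142 counts in DAXX_KO with etoposide against 1, 13 and 0 in WT. PCDHGA5 had 37, 0 and 23 against 0, 0 and 0, and its call was lost without any 1 WT etoposide library, DAXX_KO etoposide replicate 1 or replicate 3 (adjusted p 0.060 to 0.13). DESeq2 called neither PCDHGA1 (adjusted p = 0.29) nor PCDHGA5 (0.072), and PCDHGA5 was also lost with all 24 libraries in one model (0.14). In 4 members the libraries did not overlap, as in 58.3% of all genes.

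In ATRX_KO control cells, 8 of 19 members tested were called, 5 higher and 3 lower, where 41.8% of all genes were called and 20.8% as higher. The gamma genes among them were PCDHGA2, PCDHGB6 and PCDHGB7 as higher and PCDHGA3, PCDHGA5 and PCDHGA7 as lower. PCDHGA2 was called on 139, 0 and 0 counts against 0, 0 and 0, and the fitted change was 0.00 without the ATRX_KO control replicate 1. PCDHGA3 was called on 0, 0 and 0 counts against 320, 0 and 0, and it was 0.00 without WT control replicate 1. PCDHGB6 had 76, 220 and 0 counts against 0, 0 and 0, PCDHGA7 0, 0 and 0 against 162, 317 and 0, and PCDHGB7 245, 118 and 348 against 0, 0 and 134. The calls of PCDHGA2 (any 1 WT control library or ATRX_KO etoposide replicate 2), PCDHGA3 (ATRX_KO control replicate 1 or 2) and PCDHGB7 (WT control replicate 1 or 2, ATRX_KO control replicate 1 or 3) were also lost without 1 of the libraries named, with adjusted p from 0.050 to 0.081, whereas those of PCDHGA5, PCDHGA7 and PCDHGB6 were not lost without any 1 library. Within the series PCDHGA2 and PCDHGB6 had counts in ATRX_KO libraries only, so they could enter the test only by being high there. PCDHGA3 and PCDHGA7 passed the filter only with their counts in WT control, where they are high. Elsewhere in the series they had counts only in ATRX_KO with etoposide, 0, 29 and 78 in PCDHGA3 and 0, 148 and 0 in PCDHGA7. The adjusted p-values of PCDHGA2, PCDHGB6, PCDHGA3 and PCDHGA7, with all libraries or without 1, are therefore no independent support. DESeq2 did not call PCDHGA5 (adjusted p = 0.47), PCDHGB6 (0.090) or PCDHGB7 (0.32) in this comparison. Of the 6, the libraries were apart only in PCDHGA5. In this comparison 3 members of 19 had libraries that did not overlap, as had 50.9% of all genes.

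The beta genes, which share no constant exon, gave the most direct reading of single members. All 4 beta genes that could be tested in the DAXX series were called higher in DAXX_KO control, where 53.4% of all genes were called and 26.9% as higher. PCDHB2 (ENSG00000112852, chr5:140474191-140478287) had 0, 0 and 0 counts in WT control and 21, 17 and 14 in DAXX_KO control. With etoposide it had 0, 1 and 0 in WT and 10, 15 and 3 in DAXX_KO. The gene was thus counted in all 6 DAXX_KO libraries and in 1 of 6 WT libraries. Its level of 2.22 ± 0.48 CPM in DAXX_KO control was at least 6.53-fold higher than WT, taken against a floor of 3 counts per library (adjusted p = 1.5e-05 in edgeR). PCDHB2 reached the minimum of 10 counts in DAXX_KO libraries only, so it could enter the test only by being high there, and its adjusted p-values are no independent support. With etoposide the pooled ratio was 25.0, with an exact 95% interval from 4.13 to 1021 that covers counting error only (adjusted p = 0.0013 in edgeR). The fitted log2 fold change was 4.22 and lay between 3.77 and 6.16 when 1 library was left out.

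PCDHB9 (chr5:140566701-140571114) had 25, 11 and 15 counts in WT control and 32, 44 and 31 in DAXX_KO control. Its level rose from 1.88 ± 0.62 to 4.58 ± 1.14 CPM (log2 fold change 1.26, SE 0.35, adjusted p = 0.0044 in edgeR). PCDHB13 had 15, 6 and 6 counts in WT control and 14, 20 and 28 in DAXX_KO control. Scaled to depth, its lowest DAXX_KO library (1.78 CPM) still lay above its highest WT library (1.51 CPM). The change was 1.38 (SE 0.44, adjusted p = 0.012 in edgeR), and adjusted p rose to 0.058 without WT control replicate 2, 0.055 without WT control replicate 3 and 0.072 without DAXX_KO control replicate 3. PCDHB14 had 12, 6 and 5 counts against 16, 16 and 18, a change of 1.30 (SE 0.44, adjusted p = 0.019 in edgeR). DESeq2 gave adjusted p = 0.065 for it, and edgeR 0.067 and 0.075 without WT control replicates 2 and 3. With etoposide PCDHB2 and PCDHB13 were again higher in DAXX_KO, PCDHB13 by 1.49 (SE 0.54, adjusted p = 0.025 in edgeR), and it was above 0.05 with DESeq2 (adjusted p = 0.061) and without WT etoposide replicate 2 (0.12), WT etoposide replicate 3 (0.055) or DAXX_KO etoposide replicate 3 (0.13). PCDHB9 changed by 0.56 (SE 0.34, adjusted p = 0.18) and PCDHB14 by -0.06 (SE 0.45, adjusted p = 0.93), so neither passed the test.

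The beta sum was 4.46 ± 1.95 CPM in WT control and 14.2 ± 1.83 in DAXX_KO control, a ratio of 3.18. With etoposide it was 5.53 ± 1.50 and 10.5 ± 3.14, a ratio of 1.89. In the ATRX series the beta sum was 6.68 ± 0.48 in WT control and 9.62 ± 1.68 in ATRX_KO control, a ratio of 1.44, and with etoposide 8.10 ± 0.82 and 10.3 ± 0.59, a ratio of 1.28. The libraries of KO and WT did not overlap in any of the 4 pairs. Between the WT control libraries of the 2 series, DAXX series over ATRX series, the beta sum had a ratio of 0.667, with overlapping libraries. Of the 15 beta genes, 14 had a count somewhere and 3 (PCDHB9, PCDHB13 and PCDHB14) were counted in all 24 libraries. PCDHB1 had 0 counts throughout. Beta genes are close copies of each other, and reads that fit several of them may have been shared out in the estimation.

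**Figure D3:**
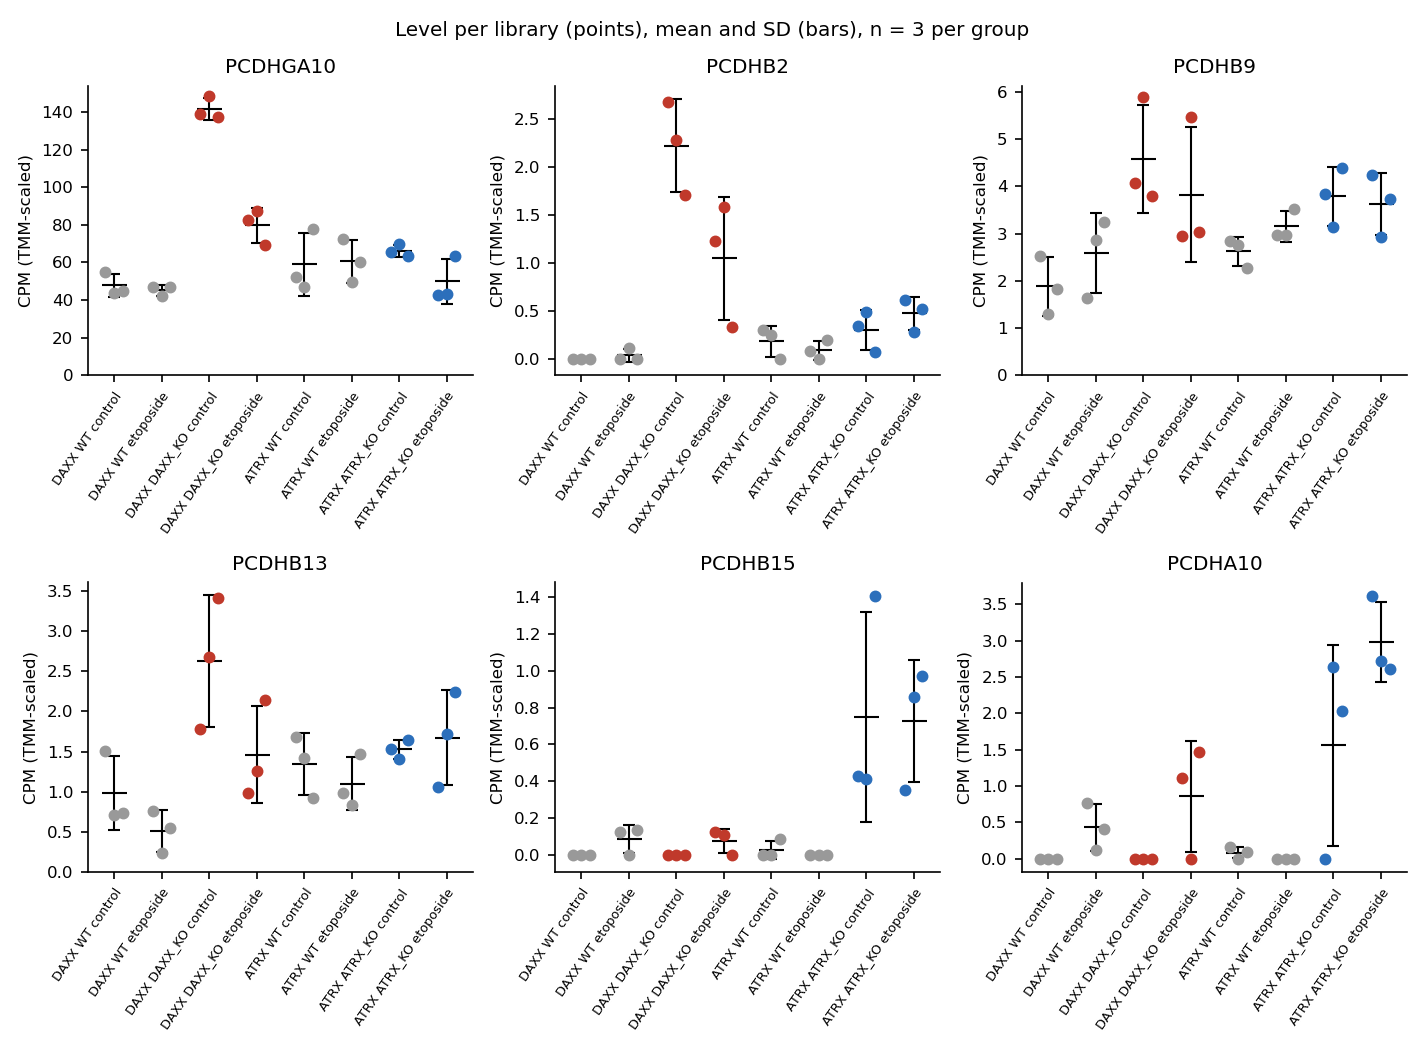
CPM (TMM-scaled) of 6 members in every library (points), with the mean and SD of each group of 3 (bars), WT in grey, DAXX_KO in red and ATRX_KO in blue. PCDHGA10 and PCDHB2 stand high in DAXX_KO, while PCDHB15 and PCDHA10 stand high in ATRX_KO, with 1 ATRX_KO control library of PCDHA10 at 0.

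PCDHB15 (ENSG00000113248, chr5:140624963-140628933) stood high in the other knockout. It had 5, 5 and 18 counts in ATRX_KO control and 0, 0 and 1 in WT control of that series. With etoposide it had 4, 12 and 13 in ATRX_KO and 0, 0 and 0 in WT. The 6 ATRX_KO libraries were all above the 6 WT libraries. PCDHB15 reached 10 counts in ATRX_KO libraries only, so here too the gene entered the test through the group where it is high, and its adjusted p-values are no independent support. The pooled ratio in control was 28.2, with an exact 95% interval from 4.67 to 1154 (adjusted p = 0.0037 in edgeR). The fitted log2 fold change in control was 4.36 and lay between 3.52 and 6.21 when 1 library was left out. With etoposide the level was at least 2.59-fold higher than WT (adjusted p = 0.0020 in edgeR). In the DAXX series PCDHB15 had at most 1 count in any library, and it was not tested there. PCDHB2 was low in the ATRX series, with 4, 3 and 0 counts in WT control and 4, 6 and 1 in ATRX_KO control, and it was not tested within that series. With etoposide it had 1, 0 and 2 counts in WT and 7, 4 and 7 in ATRX_KO, and there the lowest ATRX_KO library (0.286 CPM) lay above the highest WT library (0.196 CPM). PCDHB9 was higher in all 3 ATRX_KO control libraries than in WT, by 0.53 (SE 0.23), but adjusted p was 0.078 in edgeR. PCDHB13 changed by 0.18 (SE 0.37) and PCDHB14 by 0.62 (SE 0.42) in the same comparison, adjusted p = 0.73 and 0.25.

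With etoposide 3 of 19 members were called in ATRX_KO, all higher, where 45.9% of all genes were called and 23.0% as higher. They were PCDHB15, PCDHA10 and PCDHGB6. Within the series all of them reached 10 counts in ATRX_KO libraries only, so their adjusted p-values are no independent support. PCDHGB6 had 106, 105 and 0 counts against 0, 0 and 0, so that its libraries overlapped at 0, and its call was lost without any 1 WT etoposide library or ATRX_KO etoposide replicate 2 (adjusted p 0.054 to 0.058) and with DESeq2 (0.12), while the libraries of the other 2 did not overlap, as in 55.2% of all genes.

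The alpha cluster was barely expressed. Of its 15 genes, 12 had a count in any library, none was counted in all 24, and in the DAXX series none could be tested. PCDHA10 (ENSG00000250120, chr5:140235468-140391932) was the exception in the ATRX series. It had 0, 32 and 26 counts in ATRX_KO control and 2, 0 and 1 in WT control, with a pooled ratio of 19.5 and an exact 95% interval from 6.35 to 97.3 (adjusted p = 0.0062 in edgeR). The library at 0 overlapped WT. The fitted log2 fold change in control was 4.11 and lay between 3.52 and 4.93 when 1 library was left out. With etoposide it had 41, 38 and 35 counts in ATRX_KO and 0, 0 and 0 in WT, a level at least 10.6-fold higher (adjusted p = 4e-04 in edgeR). Within the series PCDHA10 reached 10 counts in ATRX_KO libraries only, and the same limit holds for its adjusted p-values. In the ATRX_KO control library without PCDHA10 counts, 15 counts went to PCDHA1 and 19 to PCDHA13, which gave 2 and 3, and 3 and 0, in the other replicates. In the DAXX series PCDHA10 had 0 counts in all 6 control libraries, and with etoposide 6, 1 and 3 in WT and 9, 0 and 13 in DAXX_KO. The alpha sum of the ATRX series was steadier, with 34, 37 and 33 counts in ATRX_KO control and 8, 2 and 1 in WT, and with etoposide 56, 64 and 70 against 4, 11 and 5.

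The alpha sum was also above WT in DAXX_KO, where no single gene was tested. Counts were 18, 9 and 15 in DAXX_KO control against 1, 2 and 4 in WT, and 15, 13 and 38 against 7, 3 and 8 with etoposide. In CPM these were 1.78 ± 0.54 against 0.27 ± 0.20 in control and 2.50 ± 1.56 against 0.78 ± 0.38 with etoposide. The WT level was near the 0.215 to 0.407 CPM that 3 counts stand for, so no fold of the alpha sum is given. In all 4 pairs of KO and WT the libraries were apart.

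**Figure D4:**
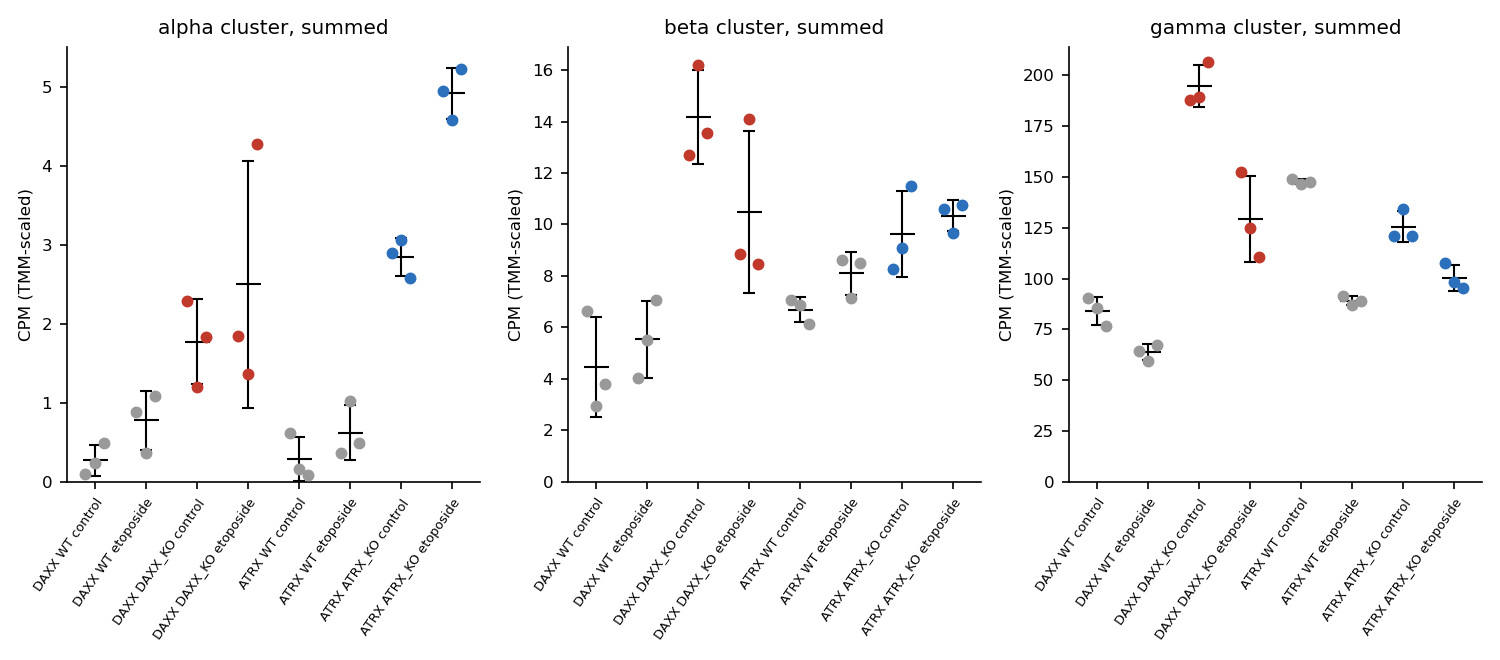
Summed CPM (TMM-scaled) of the alpha, beta and gamma clusters in every library (points) with the mean and SD of each group of 3 (bars), WT in grey, DAXX_KO in red and ATRX_KO in blue. Alpha and beta sums are above WT in both KO lines, whereas the gamma sum is 195 CPM in DAXX_KO control and 125 in ATRX_KO control beside 84.1 and 148 in their WT.

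The KO effects were then compared with each other in 1 model of all 24 libraries. Of 23 members tested, 4 differed between DAXX_KO and ATRX_KO in control, where 34.1% of all genes did. PCDHGA10 differed by 1.39 on the log2 scale (SE 0.22, adjusted p = 1.8e-05 in edgeR), with the larger change in DAXX_KO. PCDHB2 also differed in that direction (adjusted p = 0.0037). PCDHGA9 and PCDHGA2 made up the rest. PCDHGA9 had 0, 68 and 37 counts in DAXX_KO control and 0, 0 and 59 in WT control of the ATRX series, and adjusted p was 1.0 without that last library, 0.058 without DAXX_KO control replicate 2 and 0.20 with DESeq2. PCDHGA2 had 139, 0 and 0 counts in ATRX_KO control and 0, 93 and 0 in WT control of the DAXX series, and adjusted p was 1.0 without either library with counts. PCDHB9 had a difference of 0.73 (SE 0.41) that did not pass (adjusted p = 0.18). Between the WT control libraries of the 2 series 1 of 23 members was called, PCDHGA7 on 0, 0 and 0 counts against 162, 317 and 0, where 13.2% of all genes were called, and that call was lost without any 1 WT control library of the DAXX series or replicate 1 or 2 of the ATRX series (adjusted p 0.060 to 0.11). PCDHGA10 had a difference of -0.30 (SE 0.16, adjusted p = 0.25) there.

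Etoposide lowered the gamma sum in each of the 4 kinds of cells, to 0.757 of control in WT and 0.665 in DAXX_KO of the DAXX series, and to 0.603 in WT and 0.800 in ATRX_KO of the ATRX series. In each case the 3 libraries with etoposide were below the 3 controls. In DAXX_KO, PCDHGA10 fell by 0.81 (SE 0.09, adjusted p = 3.8e-07 in edgeR), whereas in WT its change was -0.06 (SE 0.10, adjusted p = 0.64). The interaction was -0.75 (SE 0.14, adjusted p = 0.00099 in edgeR), and PCDHGA10 was the 1 member of 14 called there, where 14.1% of all genes were. The gamma genes other than PCDHGA10 summed to 36.2 CPM in control and 18.5 with etoposide in WT, and to 53.0 and 49.6 in DAXX_KO. In the ATRX series they summed to 88.7 and 28.5 CPM in WT, and to 59.2 and 50.4 in ATRX_KO. In the DAXX_KO response 3 of 14 members were called (54.7% of all genes), with PCDHGA12 at 0, 0 and 0 counts after etoposide and PCDHGA1 as higher, the latter not without DAXX_KO control replicate 1 or 3 or DAXX_KO etoposide replicate 1 or 3 (adjusted p 0.056 to 0.15). DESeq2 called neither PCDHGA12 (adjusted p = 0.080) nor PCDHGA1 (0.52), and PCDHGA1 was also lost with all 24 libraries in one model (0.078). PCDHGA12 entered this test only through DAXX_KO control, where it is high, so its adjusted p-value is no independent support. In WT of the DAXX series 2 of 14 were called, both lower (60.3% of all genes). They were PCDHGC3, by -1.14 (SE 0.38, adjusted p = 0.014 in edgeR), and PCDHGA5 at 0, 0 and 0 counts after etoposide against 97, 0 and 85. Without WT control replicate 2 the PCDHGC3 change was -0.76 (adjusted p = 0.11), and without WT etoposide replicate 3 it was -0.95 (adjusted p = 0.066). With all 24 libraries in one model adjusted p was 0.095.

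In WT of the ATRX series 6 of 19 members were called (61.5% of all genes), PCDHGA3, PCDHGA5, PCDHGA7, PCDHGC3 and PCDHGC5 as lower and PCDHGB1 as higher. The calls of PCDHGA3, PCDHGC5 and PCDHGB1 were each lost without any 1 of at least 4 libraries (for PCDHGA3 and PCDHGC5 the 3 WT etoposide libraries and the 1 control library with counts, for PCDHGB1 the 3 WT control libraries and etoposide replicate 1). PCDHGA5 went from 544, 531 and 123 counts to 0, 0 and 30, and PCDHGC3 from 138, 310 and 229 to 40, 131 and 54. Scaled to depth, the ranges of PCDHGA3, PCDHGA7, PCDHGC3, PCDHGC5 and PCDHGB1 overlapped. PCDHGA3, PCDHGA7 and PCDHGC5 passed the filter on low counts only with their counts in WT control, where they are high. Their adjusted p-values, here and in the interaction below, are no independent support. The call of PCDHGC3 (-1.38, SE 0.56, adjusted p = 0.041) was lost without WT control replicate 2 or 3 or WT etoposide replicate 1 or 3, where the change was between -1.37 and -1.06. DESeq2 did not call PCDHGA5 (adjusted p = 0.27), PCDHGC3 (0.14) or PCDHGB1 (0.11) in this response. In ATRX_KO 0 of 19 members were called by edgeR (49.5% of all genes). DESeq2 called 2 there, both as higher, and its share of all genes is not given here. In edgeR 3 had an unadjusted p under 0.05, of which PCDHGA7 and PCDHGA3 were higher. PCDHGA10 was among the 3 as well, with a change of -0.42 (SE 0.18, adjusted p = 0.062). It passed without a filter (3.7e-05), with all 24 libraries in one model (0.032), with only the groups compared (0.040) and without WT control replicate 2 (0.048), WT control replicate 3 (0.026) or ATRX_KO etoposide replicate 3 (0.0068), so its fall in ATRX_KO depended on these choices. The interaction of ATRX_KO and etoposide called 2 of 19 members, PCDHGA3 and PCDHGA7, against 16.0% of all genes, and adjusted p was 1.0 for PCDHGA3 without WT control replicate 1 and for PCDHGA7 without ATRX_KO etoposide replicate 2. No beta gene passed the test in any etoposide response or interaction with all libraries. In the DAXX_KO response PCDHB2 and PCDHB14 passed without DAXX_KO etoposide replicate 2 (-1.49, adjusted p = 0.044, and -1.24, adjusted p = 0.042) and PCDHB13 without replicate 3 (adjusted p = 0.048), all as lower. The libraries of PCDHB2 and PCDHB14 did not overlap there. In WT of the ATRX series those of PCDHB9 did not overlap in the other direction (0.28, SE 0.24, adjusted p = 0.32 in edgeR). The share of all genes apart in these responses is not given here. The beta sum with etoposide was 0.739 of control in DAXX_KO and between 1.07 and 1.24 times control in the other 3 kinds of cells.

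Genes that act on the clusters were looked at next, from a list of 26 regulators of which all were tested. CTCF, the factor that binds the promoters, had a log2 fold change in DAXX_KO of -0.45 in control (SE 0.08, adjusted p = 7.9e-05) and -0.43 with etoposide (SE 0.08, adjusted p = 0.00018). In ATRX_KO it changed by -0.03 (SE 0.09, adjusted p = 0.81) in control and -0.16 (SE 0.09, adjusted p = 0.17) with etoposide. SMCHD1, a chromatin protein known to restrain these clusters, changed by -0.17 (SE 0.09, adjusted p = 0.12) in DAXX_KO control and -0.24 (SE 0.10, adjusted p = 0.065) in ATRX_KO control. LRIF1, which binds SMCHD1 and HP1, was higher in DAXX_KO control by 1.52 (SE 0.16, adjusted p = 1.1e-07) and in ATRX_KO control by 1.48 (SE 0.12, adjusted p = 6e-08). SETDB1, the H3K9 methyltransferase, did not pass in DAXX_KO control (-0.13, SE 0.13, adjusted p = 0.41) or ATRX_KO control (-0.09, SE 0.11, adjusted p = 0.55). TRIM28, its corepressor partner, fell in ATRX_KO control (-1.24, SE 0.10, adjusted p = 4.6e-08) and in DAXX_KO control (-0.69, SE 0.11, adjusted p = 2e-05). Of the cohesin subunits, STAG2 was higher in DAXX_KO control (0.81, SE 0.07, adjusted p = 1.3e-08), SMC3 lower (-0.79, SE 0.09, adjusted p = 6.3e-07) and RAD21 did not pass (-0.14, SE 0.07, adjusted p = 0.085). In all, 10 regulators rose and 8 fell in DAXX_KO control, and 8 rose and 4 fell in ATRX_KO control, with list medians of -0.12 and 0.06, where 53.4% and 41.8% of all genes were called. Whether any of these bears on the protocadherins was not tested.

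The nonclustered protocadherins, which lie outside the clusters and share no constant exons with them, were tested in the same fits. They were listed by name and not by distance from the clusters, so they are not a set of unlinked genes. Of 7 tested, 1 rose and 4 fell in DAXX_KO control, and 1 rose and 3 fell in ATRX_KO control, with list medians of -0.93 and -0.00, beside the same 53.4% and 41.8% of all genes called. PCDH10 fell from 2.26 ± 0.12 to 0.25 ± 0.24 CPM in DAXX_KO control (adjusted p = 0.00015) and from 3.52 ± 0.09 to 0.08 ± 0.14 in ATRX_KO control (adjusted p = 1.2e-06). PCDH18 fell from 3.31 ± 1.03 to 0.09 ± 0.08 CPM in DAXX_KO control (adjusted p = 4.7e-06) and from 7.50 ± 0.93 to 0 in all 3 libraries of ATRX_KO control (adjusted p = 6.5e-09). PCDH15 was 5.88 ± 0.42 CPM in WT and 0 in all 3 DAXX_KO control libraries (adjusted p = 4.4e-08). PCDH9 fell from 44.9 ± 0.64 to 23.5 ± 1.74 CPM in DAXX_KO control (adjusted p = 1.8e-08) and rose from 55.7 ± 1.83 to 94.8 ± 15.4 in ATRX_KO control (adjusted p = 1.1e-05). Among 14 tested partners and downstream genes of protocadherins, 8 rose and 4 fell in DAXX_KO control and 3 rose and 2 fell in ATRX_KO control, again beside 53.4% and 41.8% of all genes. FYN, a kinase that acts below alpha protocadherins, rose in DAXX_KO control by 1.29 (SE 0.08, adjusted p = 7.7e-11) and in ATRX_KO control by 0.75 (SE 0.09, adjusted p = 4.7e-06). PTK2B, the kinase PYK2 that gamma and alpha constant domains are known to bind, rose in DAXX_KO control by 1.13 (SE 0.14, adjusted p = 1.6e-06). RAC1, a GTPase of the actin skeleton, rose there by 1.02 (SE 0.05, adjusted p = 4.7e-12).

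The genes around the clusters were tested in the same fits. Of the 30 tested protein-coding genes before the clusters, 2 were higher and 16 lower in DAXX_KO control, and of the 30 after them 7 were higher and 13 lower, where 53.4% of all genes were called and 26.9% as higher. Their medians were -0.41 and -0.31, beside 0.02 over all genes. The genes named here were taken for their position, after their values were seen. The nearest gene before, ZMAT2, was lower (-0.42, SE 0.07, adjusted p = 2.9e-05) and so was the nearest after, DIAPH1 (-0.47, SE 0.08, adjusted p = 3.6e-05). TAF7, a gene of the general transcription machinery that lies between the beta and gamma genes, changed by 0.18 (SE 0.08, adjusted p = 0.053). In ATRX_KO control 11 of the 30 before were higher and 4 lower, and 6 after were higher and 8 lower, with medians of 0.23 and -0.00, where 41.8% of all genes were called and 20.8% as higher. TAF7 was higher there by 0.97 (SE 0.08, adjusted p = 3e-08). 

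**Figure D5:**
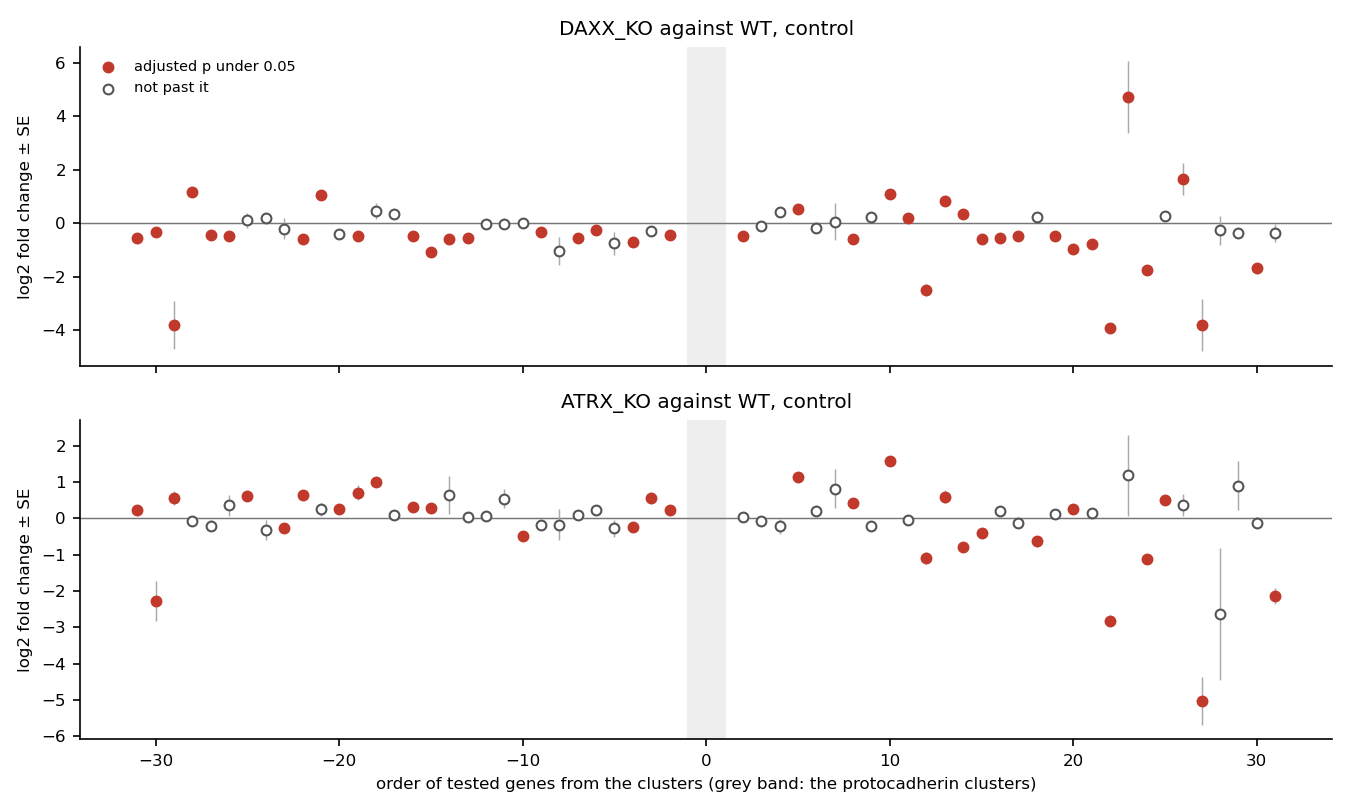
Log2 fold change with SE of the 30 tested genes on each side of the protocadherin clusters, by gene order, for DAXX_KO (top) and ATRX_KO (bottom) against WT in control. Filled points are past an adjusted p of 0.05. Flanking genes are mostly below 0 in DAXX_KO, with medians of -0.41 before and -0.31 after the clusters.

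Depth ran from 6928950 to 10410014 counts per library in the DAXX series and from 10124817 to 13298557 in the ATRX series. Markers of the labelled cell type were present in part. The 10 glioma and astrocyte markers summed to between 4494 and 4798 CPM in DAXX_KO control and between 6679 and 7305 in WT, and 4 and 3 of them had no more than 3 counts in any library of those groups. AQP4 and S100B were at 0 in all control libraries, GFAP did not pass 0.50 CPM in any of them, and VIM and CD44 were well counted. In the ATRX series they summed to between 4361 and 6040 CPM in ATRX_KO control and between 6602 and 7124 in WT control. With etoposide they lay between 1631 and 3185 CPM over all 4 kinds of cells, beside the lower gamma sums there. The 8 neuron markers summed to between 343 and 369 CPM in DAXX_KO control and between 471 and 517 in WT control, and to between 373 and 385 in ATRX_KO control and between 646 and 676 in its WT, and with etoposide they lay between 274 and 358 CPM over all groups. In control most of that sum was TUBB3, while STMN2, DCX and ELAVL3 stayed at or under 0.24 CPM. The 3 endothelial, epithelial and blood cell markers measured summed to at most 1.78 CPM in control libraries. The part of any of these in the protocadherin levels was not tested.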

How the data were processed

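RNA was sequenced from the 3′ end with a QuantSeq kit in 24 libraries, 3 per group. The authors aligned the reads to GRCh37 (hg19) and estimated expected counts per gene with RSEM (version 1.2.3 per the labels), and the deposited expected counts are whole numbers, which were used as they stand. Genes of each series were kept by edgeR's filterByExpr (minimum count 10, minimum total 15), scaled by TMM and tested with edgeR 4.0.16 (quasi-likelihood, R 4.3.3) in 1 model of 12 libraries, or of 24 for contrasts between series, with Benjamini-Hochberg adjustment over all genes tested and an FDR of 0.05. Levels are CPM with TMM factors over all 24 libraries. Depth was 6928950 to 13298557 counts, so that 3 counts stand for 0.215 to 0.407 CPM, and intervals and floors cover counting error only. All columns were mapped to samples by their titles. The fitting was tested on simulated counts with the same dispersion for all genes and changes only in genes with a mean of at least 10 counts. The simulation did not model the spread between replicates seen in single gamma genes, so it does not bear on their calls. The members, gene lists and tests were chosen with earlier results of these data known. Values are given for members among the highest in each cluster, those with the smallest adjusted p in each comparison and the C-type genes. They are not given for each of these in every comparison, nor for PCDHA12. Alternatives were other scalings, filters, designs, DESeq2 1.42.0 and leaving out each library. Sums over a cluster were not tested.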

Additional observations from a re-analysis of the deposited data

Results flagged for a closer look

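The response to etoposide differed between WT and DAXX_KO in PCDHGA10, with an interaction of -0.75 on the log2 scale. The gamma sum fell by 0.40 in WT and by 0.59 in DAXX_KO on that scale, and this difference was not tested. The effect of DAXX_KO differed from that of ATRX_KO in control in PCDHGA10 by 1.39 and in PCDHB2 by 6.86, the latter a fitted value against a group with 0 counts that depends on the prior count. All other differences of this kind were fitted on genes with whole groups at 0 counts, and their sizes are not folds. PCDHGA9 had a fitted difference of 15.59 between the knockouts, on 0, 68 and 37 counts in DAXX_KO control and 0, 0 and 59 in WT control of the ATRX series. PCDHGA2 had one of -16.52, on 139, 0 and 0 counts in ATRX_KO control and 0, 93 and 0 in WT control of the DAXX series. The interaction of ATRX_KO and etoposide was 18.73 in PCDHGA7, on 162, 317 and 0 counts in WT control and 0, 148 and 0 in ATRX_KO with etoposide. In PCDHGA3 it was 17.65, on 320, 0 and 0 counts in WT control and 0, 29 and 78 in ATRX_KO with etoposide.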

How the results depend on the processing

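Of the alternatives run for members called in a comparison, 748 kept the call and 103 lost it, and of those run for members not called, 1446 stayed so and 44 gained a call, while 0 reversed a called direction. The number of members called moved most with the filter. The share of all genes called under each alternative is not given here, so the counts below are descriptions only. Without a filter it was 18 for DAXX_KO in control, 17 for DAXX_KO with etoposide, 19 for ATRX_KO in control and 14 for ATRX_KO with etoposide. It was 11 and 12 for the etoposide responses of WT and DAXX_KO, 12 and 12 for those of WT and ATRX_KO, 11 and 11 for the interactions, 12 between the knockout effects and 15 between WT groups. With at least 10 counts in every library it was 2 for DAXX_KO in control and with etoposide, 0 for ATRX_KO in both and for its interaction, 1 for the etoposide responses of both WT and of DAXX_KO, 1 between the knockout effects and 0 between WT groups. DESeq2 called 4 and 3 for DAXX_KO, 5 and 5 for ATRX_KO, and 2 each for the etoposide responses of WT and ATRX_KO in the ATRX series. With all 24 libraries in one model 1 was called for the etoposide response of WT in the DAXX series and 2 for that of ATRX_KO. With only the groups compared 1 was called for the etoposide response of WT in the DAXX series, 1 for ATRX_KO in control, 1 with etoposide, 2 for the etoposide response of WT in the ATRX series and 1 for that of ATRX_KO. The replicate block gave 2 for the DAXX_KO interaction, 5 for ATRX_KO with etoposide and 2 for the etoposide response of ATRX_KO, where PCDHGA10 then passed (adjusted p = 0.030 in edgeR). Under the block the calls of PCDHGC3 in DAXX_KO with etoposide (0.051), PCDHGA3 in ATRX_KO control (0.066) and, in the etoposide response of WT in the ATRX series, PCDHGA3 (0.052) and PCDHGC5 (0.060) were lost. Same-numbered libraries correlated between -0.28 and 0.07 over 36 pairs. Libraries of unlike number were not compared, so these values do not settle whether replicates are paired. Apart from changes set by fewer or more genes and libraries, the cause was not tested. Leaving out 1 library gave 6 to 10 members for DAXX_KO in control, 4 to 7 with etoposide, 1 to 3 and 2 to 7 for the etoposide responses of WT and DAXX_KO and 1 to 4 for the interaction. In the ATRX series it gave 5 to 11, 3 to 7, 2 to 6, 0 to 3 and 1 to 4 in the same order, and 3 to 6 between the knockout effects and 0 to 3 between WT groups. Scaling by library totals moved the median of all genes in DAXX_KO control to 0.20 and the log2 ratio of the gamma sum from 1.21 to 1.40. Leaving out 1 library, that log2 ratio was between 1.15 and 1.26, and for DAXX_KO with etoposide between 0.89 and 1.12. For ATRX_KO it was between -0.29 and -0.21 in control and between 0.12 and 0.21 with etoposide. The log2 ratio of the beta sum was between 1.44 and 2.08, 0.65 and 1.13, 0.38 and 0.62, and 0.27 and 0.40 in the 4 comparisons. With 3 counts worth up to 0.407 CPM, most alpha genes were below what these libraries can compare.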
